A study of Homo sapiens with 4 samples.

Results

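The genes described here are the zinc finger genes of human chromosome 19 whose symbol is ZNF followed by digits. Of 20056 protein-coding genes in the RefSeq table for GRCh38.p14, 246 met that rule, which is 17.0% of the 1451 protein-coding genes of the chromosome. Their m6A regions were the lines of the deposited annotation whose transcript belonged to such a gene (252 regions) or, where the line named no transcript, whose nearest start site did (28 regions, all annotated as intergenic). That gave 280 of 9900 regions, and 193 of the 246 genes were named by at least 1 of them. The choice used names and positions only, not a measured value, but it was made with earlier results of these data known.

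The study mapped N6-methyladenosine (m6A), a methyl mark on adenosines in RNA, in wild-type H1, a long-used human embryonic stem cell line. RNA fragments were pulled down with an m6A antibody, and there were 2 input and 2 pull-down libraries, with the same cells, genotype and antibody in the labels of all 4. The deposited data were 1 intersected set of MACS2 peaks on hg38, with positions but no height, score or value per library. There is thus no replicate error to set beside any share below, the depth is unknown, and the absence of a region does not show that the gene's RNA is unmethylated. The interval after a share is the 95% Clopper-Pearson (exact binomial) one, for counting error alone. ZNF genes lie side by side and share sequence, so they are not independent of each other and no test was run between groups. RNA levels were not in the files.

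Most ZNF genes of chromosome 19 encode proteins of the C2H2 class, in which a pair of cysteines and a pair of histidines hold a zinc ion and each finger contacts a few bases of DNA. Many carry a KRAB domain, which recruits the corepressor TRIM28 and, through it, the histone methyltransferase SETDB1, and in embryonic stem cells such proteins are known for silencing transposable elements. In a typical KRAB zinc finger gene the KRAB domain is encoded by short early exons, and the whole finger array by 1 long last exon. The family expanded by tandem duplication, which left the clusters that stand along chromosome 19 today.

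ZNF genes made up a large share of all m6A regions on the chromosome. Of 638 regions on chromosome 19, 280 belonged to them (43.9%), and of the 314 regions centred in an exon, 168 did (53.5%). At least 1 exonic region, meaning a centre in a coding exon, UTR or non-coding exon, was found in 159 of the 246 genes (64.6%, interval 58.3 to 70.6%). The background over all protein-coding genes was 12.8%. ZNF genes on other chromosomes held one in 141 of 264 cases (53.4%, 47.2 to 59.5%) and the other protein-coding genes of chromosome 19 in 127 of 1205 (10.5%, 8.86 to 12.4%). The chromosome 19 members therefore stood far above their own neighbours without ZNF symbols, while their interval met that of ZNF genes elsewhere. When any overlap between a region and the gene body was counted, 191 of 246 ZNF genes were met (77.6%), against a background of 30.2%. By that count it was 188 of 264 ZNF genes on other chromosomes (71.2%) and 268 of 1205 other genes of chromosome 19 (22.2%). The median gene body was 23151.5 bp in the members and 24092.5 bp over all protein-coding genes. It was 24379 bp in ZNF genes on other chromosomes, but only 12763 bp in the other protein-coding genes of chromosome 19.

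By the annotation of their centres, the 280 regions were 134 in coding exons (47.9%, 41.9 to 53.9%), 77 in introns (27.5%, 22.4 to 33.1%), 28 intergenic, 25 in 3' UTRs (8.93%), 8 in non-coding exons, 4 at promoters, 3 at transcript ends and 1 in a 5' UTR. Exonic classes together came to 60.0% (54.0 to 65.8%), against 30.9% of all 9900 regions. Introns held 50.2% of all regions. In ZNF genes on other chromosomes, coding exons held 46.7% and introns 36.0% of 300 regions.

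The coding-exon regions lay almost entirely in the last exon, the exon that in KRAB zinc finger genes carries the finger array. In transcripts of 2 or more exons, 129 of 133 coding-exon regions were in the last exon (97.0%, 92.5 to 99.2%). The background over all coding-exon regions was 57.2%. ZNF genes on other chromosomes had 113 of 138 (81.9%, 74.4 to 87.9%), the other genes of chromosome 19 had 36 of 73 (49.3%, 37.4 to 61.3%), and protein-coding genes without ZNF symbols 761 of 1484 (51.3%, 48.7 to 53.9%). The interval of the chromosome 19 members lay above that of each of these groups. All 25 regions in 3' UTRs were in a last exon too, which is general: it was 99.2% of 633 in genes without ZNF symbols. So were 5 of the 8 in non-coding exons. In all, 159 of 167 exonic regions of transcripts with 2 or more exons were in the last one (95.2%, 90.8 to 97.9%), against 67.6% over all protein-coding genes and 64.5% in those without ZNF symbols. Exon lengths were not in the files, so a long exon counts as 1 exon like any other.

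**Figure D1:**
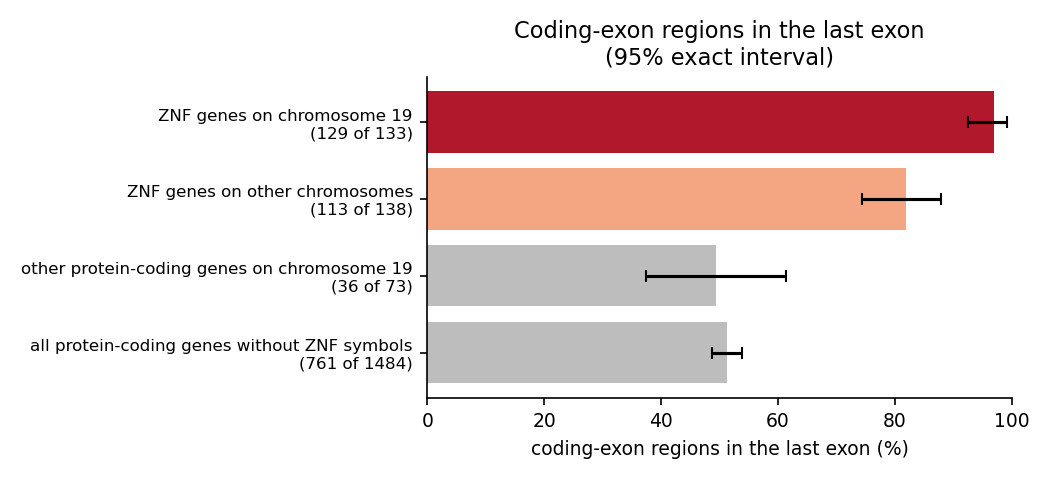
Share of coding-exon regions that lie in the last exon (horizontal axis, percent) for ZNF genes on chromosome 19 and 3 groups of other genes, with 95% exact intervals. The chromosome 19 members reached 97.0%, ZNF genes on other chromosomes 81.9% and protein-coding genes without ZNF symbols 51.3%.

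The exon number varied more than the place did. The 129 last-exon coding regions were in exon 4 of 4 in 44 cases, exon 5 of 5 in 30, exon 6 of 6 in 21 and exon 3 of 3 in 16. The highest was exon 12 of 12, in ZNF333. Of transcripts with 2 exons there were 4, those of ZNF574, ZNF404, ZNF579 and ZNF784. ZNF865 held its region in the only exon of its transcript, so it was left out of the last-exon share.

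Only 4 coding-exon regions were outside the last exon. ZNF507 held 1 in exon 2 of 6, and a further one in exon 6 of 6, 28368 bp away. ZNF430 held 1 in exon 4 of 5 (1175 bp) and another in the 3' UTR of exon 5 of 5. ZNF550 and ZNF587B held theirs in exon 4 of 5 and exon 3 of 4, the exon before the last in both. The non-coding exon regions outside the last exon were those of ZNF525 (exon 4 of 5), ZNF765 (exon 7 of 8) and ZNF776 (exon 3 of 4). ZNF701 held the only 5' UTR region, in exon 1 of 5. The exon numbers are those of the transcript that the annotation names, and another transcript of the same gene may number them otherwise.

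Along the gene body, exonic regions gathered at the 3' end and intronic regions did not. The strand was known for 216 of the 246 genes. Of 150 exonic regions with a known strand and a centre within the gene body, 98 were in the last 20% of the body (65.3%), and the median centre was at 85.3% of its length. The median distance from centre to the 3' end of the gene was 2902 bp (quartiles 1512.75 and 5041.5 bp). It was 2951 bp for 119 coding-exon regions and 1929.5 bp for 22 in 3' UTRs. Exonic regions of protein-coding genes without ZNF symbols had a median centre at 82.6% and 53.1% in the last 20% (2034 regions). The 70 intronic regions had a median at 43.7% (quartiles 12.5 and 60.8%).

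**Figure D2:**
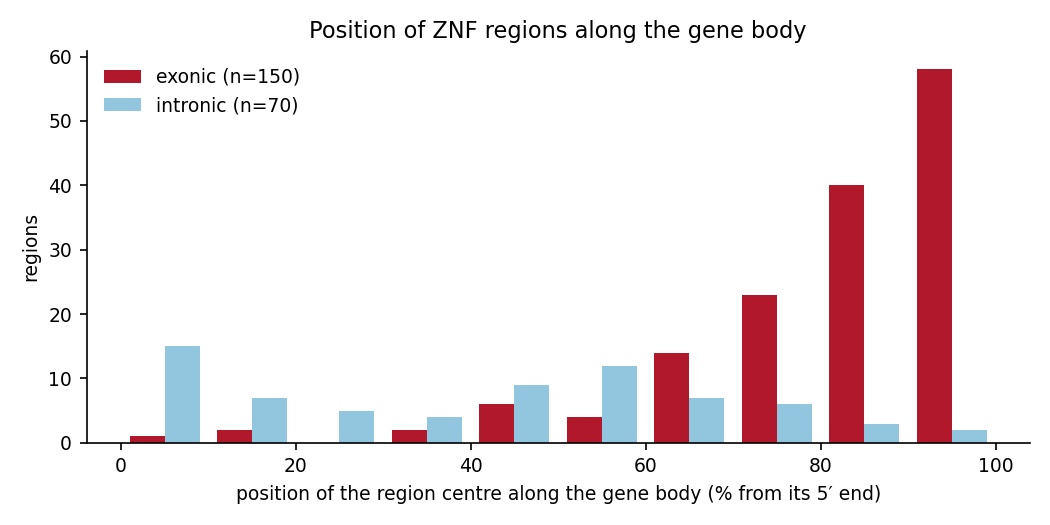
Number of regions (vertical axis) by position of the region centre along the gene body (horizontal axis, percent from the 5' end, in steps of 10) for exonic and intronic regions of ZNF genes on chromosome 19. The 150 exonic regions rise toward the 3' end, with a median of 85.3%, while the 70 intronic regions are spread along the gene, with a median of 43.7%.

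ZNF regions in exons were wider than exonic regions in general. The median width of the 168 exonic regions was 1770 bp (quartiles 1218 and 2320.75 bp), against 1293 bp over all 2843 exonic regions of protein-coding genes and 1425 bp in ZNF genes on other chromosomes. Last-exon coding regions had a median of 1833 bp here, 1465 bp in ZNF genes elsewhere and 1251 bp in genes without ZNF symbols. The coding-exon regions ran from 766 bp, in ZNF607, to 3876 bp, in ZNF780A. Those over 3 kb numbered 10, among them ZNF28 (3671 bp), ZNF14 (3573 bp), ZNF440 (3345 bp) and ZNF724 (3275 bp). At the narrow end were ZNF793 (815 bp) and ZNF507 (825 bp). 3' UTR regions were narrower, with a median of 1173 bp. The 77 intronic regions had a median of 2361 bp and reached 29073 bp.

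**Figure D3:**
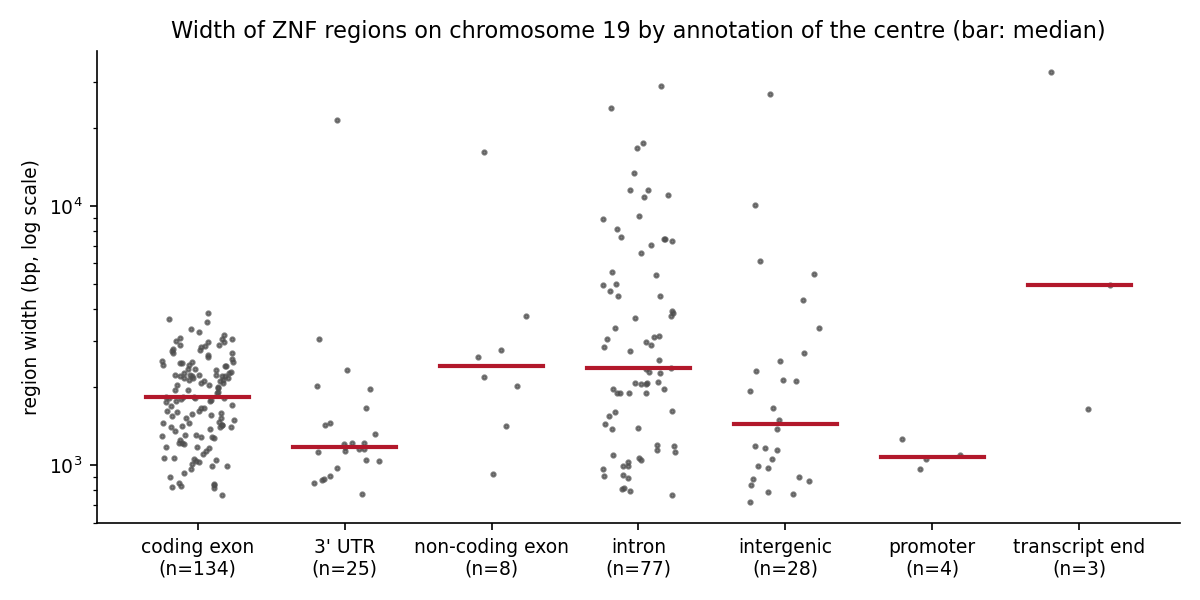
Width of each ZNF region on chromosome 19 (vertical axis, base pairs, log scale) by the annotation of its centre, with the median as a bar. Coding-exon regions stay between 766 and 3876 bp, while intronic ones reach 29073 bp; the 1 region in a 5' UTR (936 bp) is left out.

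Of all 280 regions, 14 were over 10 kb (5.0%, against 8.77% of all 9900). The widest ran for 32729 bp from chromosome 19, position 53441900, to 53474628. It was centred at a transcript end of ZNF761 and covered the start of ZNF813, the next gene. ZNF91 held a 29073 bp region in intron 1 of 3, and the 26977 bp region at ZNF799 ran along nearly the whole gene and past its start. ZNF566 (23858 bp), ZNF382 (17452 bp), ZNF146 (16659 bp), ZNF626 (13359 bp), ZNF681 (11525 bp), ZNF253 (11455 bp), ZNF85 (11008 bp) and ZNF841 (10773 bp) held theirs in introns. Those of ZNF28 (21474 bp) and ZNF420 (16077 bp) were centred in exons, and that of ZNF600 (10059 bp) was intergenic. A centre says little about what so wide a region holds.

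The 246 genes fell into 20 groups along the chromosome when a gap of 500 kb or more between neighbouring gene bodies was taken as a boundary. The 10 groups with 5 or more genes, called clusters here and numbered from the low-coordinate end, held 232 genes. The other 14 genes were single or in groups of 2 or 3, and 7 of them held an exonic region. Exonic regions were found in every one of the 10 clusters, in 43.8 to 84.6% of the genes. With so few genes the intervals were wide, and those of all 10 clusters overlapped each other.

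**Figure D4:**
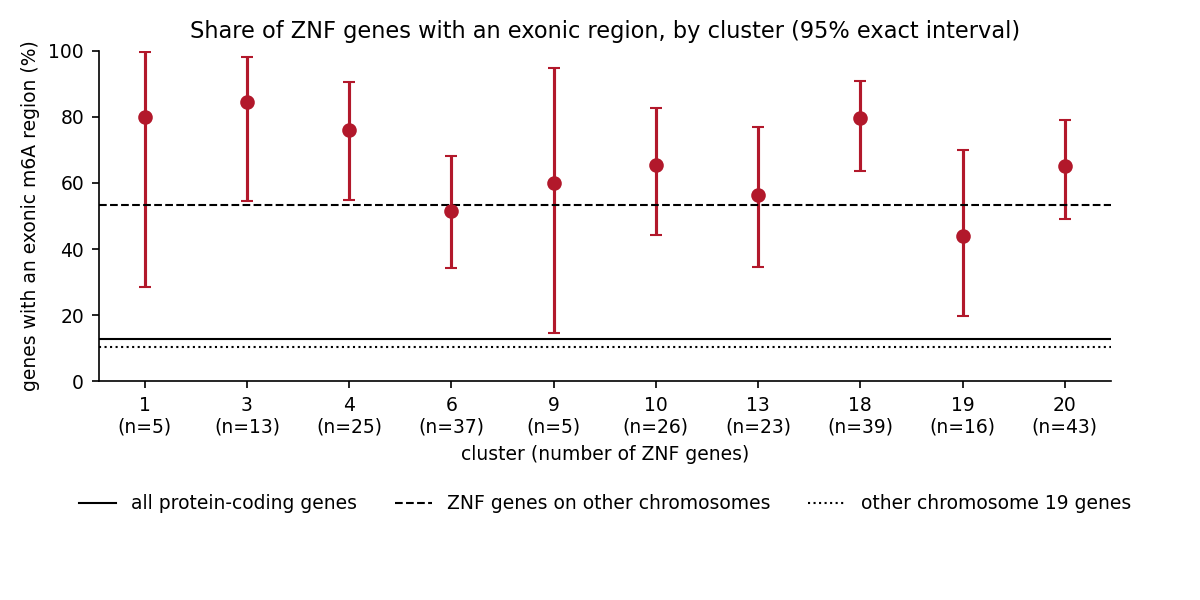
Share of ZNF genes with an exonic m6A region (vertical axis, percent) in each cluster of 5 or more genes on chromosome 19, with 95% exact intervals; lines give the share over all protein-coding genes (12.8%), ZNF genes on other chromosomes (53.4%) and other genes of chromosome 19 (10.5%). All 10 clusters are above the 12.8% line, from 43.8% in cluster 19 to 84.6% in cluster 3.

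The clusters near the low-coordinate end were marked densely and mostly in exons. Cluster 1 (positions 2819868 to 2944971) held 5 genes, 4 with an exonic region. It began with ZNF554 (1028 bp) and ended with ZNF77 (1401 bp), and ZNF57 had the widest (2763 bp). ZNF556 alone met no region. Cluster 3 (8509678 to 9786160) had the highest share, 11 of 13 genes (84.6%, 54.6 to 98.1%), from ZNF558 to ZNF846. Its widest exonic region was that of ZNF426 (2436 bp), and ZNF414 and ZNF560 met none. No region of cluster 3 was intronic. In cluster 4 (11483429 to 12633834), 19 of 25 genes held an exonic region (interval 54.9 to 90.6%), from ZNF627 to ZNF791, with 17 coding-exon and 3 UTR regions against 2 in introns. The 7 neighbours from ZNF844 to ZNF442 all held one.

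Cluster 6 (19668153 to 24129968) was the longest, at 4461816 bp. Exonic regions were in 19 of its 37 genes (51.4%, 34.4 to 68.1%), from ZNF14 to ZNF675. Introns and intergenic sequence held 30 of its 51 regions (58.8%), the highest share of the 10 clusters. Next were cluster 13 (41.7%), cluster 18 (40.0%) and cluster 10 (39.4%), while it was 16.7% in cluster 4 and 8.33% in cluster 3. The median gene body of cluster 6 was 34630 bp, also the highest of the 10. An uninterrupted run of 9 genes without an exonic region, from ZNF208 to ZNF728 (21939815 to 23003176), was the longest such run on the chromosome. ZNF257, ZNF676, ZNF729, ZNF98, ZNF492, ZNF99 and ZNF723 lie between them. None of the 9900 regions lies in this stretch of 1063 kb. Genes on both sides of the stretch held regions. ZNF43, just before it, held 1 in the 3' UTR of exon 7 of 7, and ZNF730, just after it, held 1 in exon 4 of 4. Whether these 9 genes are transcribed in H1 cells, and how reads that fit several of these closely related genes were placed, was not tested.

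**Figure D5:**
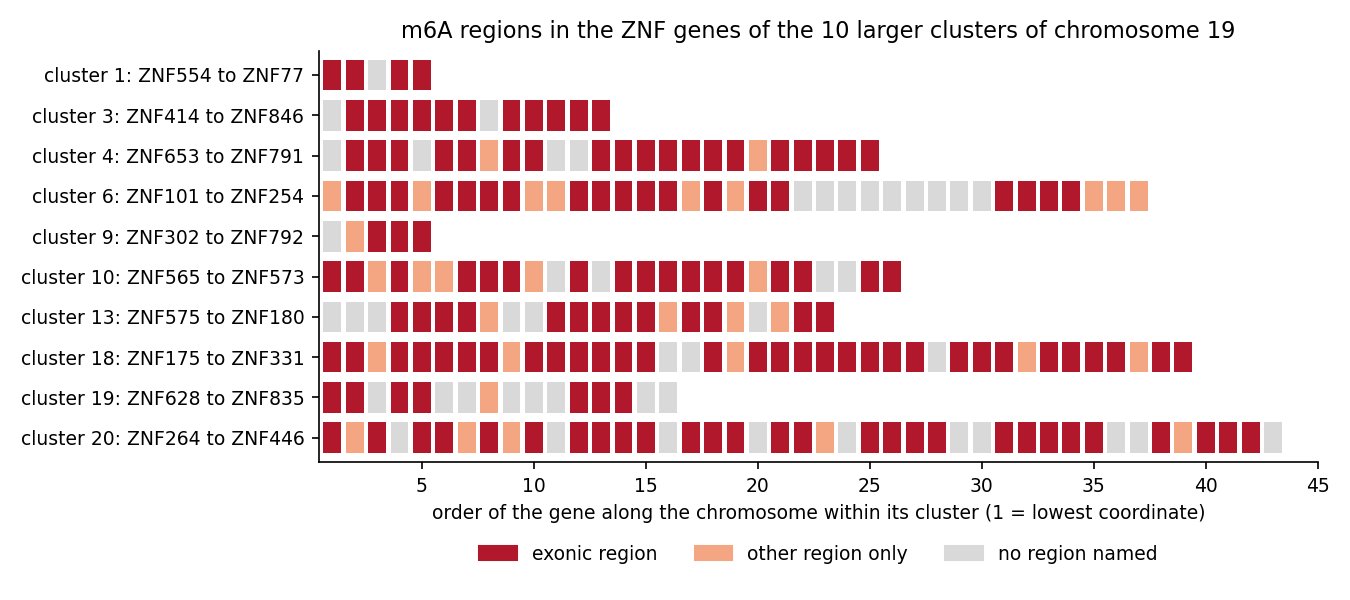
ZNF genes of the 10 larger clusters, each a box in order along the chromosome (horizontal axis, rank from the low-coordinate end), coloured by whether an exonic m6A region, only another kind of region or no region was named for the gene. The run of 9 grey boxes in cluster 6 is the stretch from ZNF208 to ZNF728.

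Cluster 9 (34675979 to 34964229) held exonic regions in 3 of 5 genes, ZNF599, ZNF30 and ZNF792 (2900 bp, the widest). In cluster 10 (36182060 to 37779586) it was 17 of 26 (65.4%, 44.3 to 82.8%), from ZNF565 to ZNF573. The median width of its exonic regions was 1219 bp, the lowest of the 10 clusters, although the 16077 bp region of ZNF420 belongs to it. Cluster 13 (43530835 to 44500522) held them in 13 of 23 genes (56.5%, 34.5 to 76.8%), from ZNF283 to ZNF180, ZNF229 having the widest (2419 bp). ZNF575, ZNF576 and ZNF428, its first 3 genes, met no region.

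Cluster 18 (51571283 to 53580269) held the most regions, 60, with exonic ones in 31 of its 39 genes (79.5%, 63.5 to 90.7%). The first was ZNF175 and the last ZNF331, an imprinted gene whose region of 1521 bp was in exon 7 of 7. The run of 8 neighbours from ZNF701 to ZNF888 was the longest with an exonic region in every gene. The median exonic width was 2126 bp, the highest of the 10, and 20 regions were in introns. Cluster 19 (55476617 to 56671757) had the lowest share, 7 of 16 genes (43.8%, 19.8 to 70.1%), from ZNF628 to ZNF470. The 6 neighbours from ZNF581 to ZNF583 had no exonic region. Unlike the stretch in cluster 6, this one of 792.4 kb held 5 regions, which were in or near U2AF2, EPN1 and ZNF787. Cluster 20 (57191500 to 58489533), the largest with 43 genes, held exonic regions in 28 (65.1%, 49.1 to 79.0%), from ZNF264 to ZNF324. ZNF776 had the widest (2615 bp). ZNF274, which is known to bring SETDB1 to the 3' ends of zinc finger genes and was singled out after its value was seen, held a region of 1106 bp in exon 8 of 8.

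A single region was the rule: 129 genes had 1 region, 44 had 2, 18 had 3, ZNF66 had 4 and ZNF780B had 5. Of the genes with 1 region, 103 held it in an exon, 16 in an intron, 3 at a promoter and 7 were named by an intergenic region only. The neighbouring regions of a gene were a median of 5944 bp apart (710 to 84035 bp).

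The common pair was 1 exonic and 1 intronic region, in 25 of the 44 genes with 2. These were ZNF763, ZNF333, ZNF14, ZNF90, ZNF737, ZNF85, ZNF714, ZNF493, ZNF43, ZNF730, ZNF91, ZNF30, ZNF146, ZNF829, ZNF780A, ZNF574, ZNF227, ZNF175, ZNF614, ZNF480, ZNF611, ZNF677, ZNF460, ZNF134 and ZNF776. An exonic and an intergenic region were paired in 9 genes, ZNF846, ZNF44, ZNF708, ZNF565, ZNF567, ZNF404, ZNF600, ZNF471 and ZNF671. ZNF101, ZNF626 and ZNF254 had 2 intronic regions each and ZNF235 had 2 intergenic ones. ZNF181 paired an intron with its promoter, and ZNF761 an intron with its transcript end. Of the 18 genes with 3 regions, 10 had 1 exonic and 2 intronic ones: ZNF253, ZNF420, ZNF585A, ZNF234, ZNF766, ZNF578, ZNF468, ZNF845, ZNF525 and ZNF264. The rest were ZNF507, ZNF793, ZNF765, ZNF701, ZNF28, ZNF675, ZNF486 and ZNF226, the last without an exonic region. All regions of ZNF66 were centred outside exons, and 3 of the 5 of ZNF780B were intergenic.

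Separate exonic regions within 1 gene were found in 9 of the 159 genes with any (5.66%, 2.62 to 10.5%). In protein-coding genes without ZNF symbols it was 218 of 2271 (9.6%, 8.42 to 10.9%). In ZNF441, ZNF607, ZNF320 and ZNF793 a coding-exon and a 3' UTR region stood in the same last exon. In ZNF441 the coding one was 1402 bp and the 3' UTR one 1218 bp, 947 bp apart. The gap was 1287 bp in ZNF320, 1815 bp in ZNF607 and 3867 bp in ZNF793. In ZNF430, ZNF507, ZNF701, ZNF28 and ZNF765 the pair came from different exons or transcripts.

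Of 21 genes listed for chromosome 19 whose proteins are known to bind transposable elements, 11 held an exonic region (52.4%, interval 29.8 to 74.3%). The share was 64.6% in all members and the background 12.8%. A region met the gene body in 16 of the 21, where the share was 77.6% in all members and the background 30.2%. ZNF91, which represses SVA and L1 elements, held an 886 bp region in the 3' UTR of exon 3 of 3 beside its wide intronic one. ZNF93, another repressor of L1 elements, held only a region of 8870 bp, centred in intron 3 of 3 and in an L1PA5 copy. ZNF85 (1815 bp), ZNF100 (2212 bp), ZNF578 (2233 bp), ZNF587 (1944 bp), ZNF417 (1770 bp), ZNF611 (2909 bp), ZNF320 (2979 bp) and ZNF28 (3671 bp) held coding-exon regions in the last exon. ZNF765 and ZNF468 held exonic regions in a 3' UTR or in non-coding exons. ZNF649 (3368 bp), ZNF382, ZNF808 (3132 bp) and ZNF429 (7568 bp) were named only by regions centred in introns. The body of ZNF808 also met an intergenic region that was named for ZNF701. ZNF534, ZNF257, ZNF528, ZNF433 and ZNF98 met no region at all.

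ZNF331 and ZNF264 held an exonic region each, the latter of 1833 bp in exon 4 of 4. ZNF296, linked to pluripotency, met none. Of 14 listed zinc finger genes of chromosome 19 with other symbols, 8 held an exonic region (57.1%), with an interval too wide (28.9 to 82.3%) to place them beside the members' 64.6%. ZFP14 (1402 bp), ZFP28 (1567 bp), ZFP30 (3572 bp), ZIK1 (793 bp), ZSCAN22 (1687 bp) and MZF1 (1500 bp) held it in the last coding exon. ZFP82 held it in a 3' UTR and ZSCAN18 in a non-coding exon. The region of ZSCAN1 was intronic, and ZIM2, ZIM3, PEG3, ZSCAN4 and ZSCAN5A met none. HKR1, the 15th name listed, is an older symbol of ZNF875, which is a member with an 834 bp region in exon 5 of 5.

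Of 13 listed genes for proteins through which KRAB zinc fingers act, 2 held an exonic region (15.4%, 1.92 to 45.4%), near the background of 12.8%, and 7 met a region over the gene body, where the background is 30.2%. ATF7IP, a partner of SETDB1, held its exonic region of 1536 bp in exon 2 of 15, and PPHLN1, a subunit of the HUSH complex, in a 5' UTR. TRIM28, SETDB1, CBX1, CBX3, CBX5 and CHD3 met no region. MPHOSPH8, TASOR, CHD4 and SMARCAD1 held only regions centred in introns, and MORC2 met a region that was not centred in one of its transcripts.

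In transcripts of 2 or more introns, 28 of 73 intronic member regions were in the last intron (38.4%, 27.2 to 50.5%). In protein-coding genes without ZNF symbols it was 867 of 4301 (20.2%). The first intron held 26.0% (16.5 to 37.6%) in the members and 24.5% (23.2 to 25.8%) in those other genes. The number of introns per transcript was not compared between the groups. In a transcript with few introns, the last one is a larger part of them by count alone. The centre was in an annotated repeat in 43 of 77 intronic regions (55.8%), near the 54.7% of all 4967 intronic regions. L1 elements held 12 (15.6%, against 28.8% of all), Alu elements 12 (15.6%, against 12.2%) and LTR elements 10 (13.0%, against 3.85%). The LTR copies included HERV3 at ZNF525 and ZNF761 and THE1B at ZNF264. Of the 28 intergenic regions, 17 were centred in an L1 element (60.7%, against 59.5% of all intergenic regions), and 3 had centres within the RefSeq body of the gene that named them (ZNF44, ZNF799 and ZNF600). Those named for ZNF701, ZNF155 and ZNF28 lay inside the body of another member, which was ZNF808, ZNF221 and ZNF600 in that order.

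A set of regions began just past a start site of a gene. Where a gene had more than 1 start site, each was used. A start site was given by RefSeq (GRCh38.p14) for 216 of the 246 genes, and in 16 of them (7.41%) the upstream edge of a region was in the first 50 bases of the transcript, 1 to 48 bp past the start (median 15.5 bp). Over all protein-coding genes it was 366 of 15843 (2.31%). The genes were ZNF101, ZNF254, ZNF146, ZNF345, ZNF420, ZNF226, ZNF766, ZNF578, ZNF808, ZNF701, ZNF845, ZNF525, ZNF765, ZNF761, ZNF71 and ZNF134, with widths around a median of 2406.5 bp. Some of these starts lay inside the gene body. In ZNF254 the start was at 24087187 and the body began at 24033449. In ZNF420 the start was at 37078433 and the body began at 37007902. The region at ZNF345 was annotated to the promoter of ZNF790, and that at ZNF71 to the read-through gene ZNF71-SMIM17. Neither ZNF345 nor ZNF71 was therefore among the 193 genes named by a region. Of the 16 genes, 8 lie in cluster 18, from ZNF766 to ZNF761. The sequences around those 8 start sites are shown because the edge of the region can be read against them. Each is 70 bases before to 30 bases after the start of transcription, 5' to 3', and capitals mark the bases inside the m6A region.

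ZNF766 start site, plus strand, chr19:52269517-52269616: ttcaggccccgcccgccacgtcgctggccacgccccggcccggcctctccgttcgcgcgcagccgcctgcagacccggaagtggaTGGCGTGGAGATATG
ZNF578 start site, plus strand, chr19:52453483-52453582: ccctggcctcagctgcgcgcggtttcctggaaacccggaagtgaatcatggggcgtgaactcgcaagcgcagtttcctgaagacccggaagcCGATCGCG
ZNF808 start site, plus strand, chr19:52527598-52527697: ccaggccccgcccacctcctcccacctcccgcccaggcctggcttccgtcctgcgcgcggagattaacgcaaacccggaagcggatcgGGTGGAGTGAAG
ZNF701 start site, plus strand, chr19:52570217-52570316: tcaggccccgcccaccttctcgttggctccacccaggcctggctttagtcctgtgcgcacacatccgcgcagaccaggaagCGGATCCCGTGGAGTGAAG
ZNF845 start site, plus strand, chr19:53333679-53333778: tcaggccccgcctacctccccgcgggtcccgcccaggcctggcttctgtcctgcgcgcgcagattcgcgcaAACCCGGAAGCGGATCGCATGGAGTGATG
ZNF525 start site, plus strand, chr19:53365635-53365734: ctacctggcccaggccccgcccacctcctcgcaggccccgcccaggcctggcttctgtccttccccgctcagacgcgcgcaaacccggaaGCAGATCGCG
ZNF765 start site, plus strand, chr19:53395079-53395178: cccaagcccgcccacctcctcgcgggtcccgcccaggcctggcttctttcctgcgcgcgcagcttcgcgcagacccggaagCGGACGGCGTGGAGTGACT
ZNF761 start site, plus strand, chr19:53431914-53432013: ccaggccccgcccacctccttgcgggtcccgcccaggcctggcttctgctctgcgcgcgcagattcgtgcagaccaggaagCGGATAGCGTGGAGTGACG

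In these 8 the region began 15 bp past the start in ZNF766, 22 bp in ZNF578, 18 bp in ZNF808, 20 bp in ZNF525, 1 bp in ZNF845 and 11 bp in each of ZNF701, ZNF765 and ZNF761. The stretches of ZNF808, ZNF701, ZNF845, ZNF765 and ZNF761 were alike: set base against base without gaps, the 10 pairs among these 5 genes were 75 to 88% identical, while the median over all 23220 pairs of members was 28%. Against these 5, ZNF766 was 51 to 58% identical, ZNF525 28 to 33% and ZNF578 27 to 32%. A comparison without gaps misses likeness that is shifted by some bases, as can be read in the ZNF525 stretch. The 5 were grouped after their sequences were seen. How reads that fit more than 1 of them were placed was not tested.

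The start-site regions were all on 1 strand. All 16 genes were on the plus strand, where 116 of the members with a known start lie, and none of the 100 on the minus strand had a region edge in the first 50 bases. Within 300 bp past the start the counts were 22 and 0. The same lean was seen over all protein-coding genes, with 297 plus-strand and 69 minus-strand genes in the first 50 bases, and 444 of 8085 and 231 of 7758 in the first 300. Intronic regions were found in 38 of the 116 plus-strand members (32.8%) and 19 of the 100 minus-strand ones, while exonic regions were found in 70 (60.3%) and 72 of them. What separates the strands was not tested.

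In 79 of 252 member regions with a transcript (31.3%, 25.7 to 37.5%) the nearest start site was that of another gene. The share was 39.1% over 7284 regions in protein-coding genes without ZNF symbols, and for the members the other gene was itself a member in 47 of the 79. For coding-exon regions the share was 36.6% in the members and 36.4% in protein-coding genes without ZNF symbols. The region in the last exon of ZNF554, for example, was nearest to the start of ZNF555. Of all 280 regions, 10 touched the bodies of 2 members, as at ZNF69 and ZNF700, ZNF565 and ZNF146, and ZNF600 and ZNF28. Some members are known as close copies of a neighbour. ZNF585A and ZNF585B had last-exon regions of 2982 and 2406 bp, and ZNF780A and ZNF780B ones of 3876 and 2039 bp. ZNF587, ZNF814 and ZNF417 had them in exon 3 of 3 (1944, 1822 and 1770 bp), while the region of ZNF587B was in exon 3 of 4. The likeness of these copies was not measured here. How reads shared by copies were placed was not given, so which copy carries the mark is uncertain.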

How the data were processed

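m6A-seq of wild-type H1 cells gave 4 libraries, 2 input and 2 pull-down, grouped by the sample titles. Nothing in the labels says whether replicates were separate cultures. MACS2 2.2.7.1, HOMER, HISAT2 2.2.1, bedtools 2.30.0, SAMtools 1.6, Trim Galore 0.6.7 and the build hg38 are named in the submitters' processing notes. Thresholds and the handling of reads with several alignments: not given in the sources used here. From these steps the authors deposited 9900 intersected region positions in base pairs and a HOMER annotation of the same 9900, with a signed distance to the nearest start site. The deposited Peak Score was 0 throughout and was not used. Depth per library is unknown.

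Annotated transcripts were matched without version to the RefSeq gene table of GRCh38.p14. Promoter windows (250 bases before to 50 after a start) and strands came from RefSeq, GRCh38.p14, for 216 of 246 members; no coordinates were converted. Symbols were ZNF, digits and an optional letter, without read-through genes. Clusters were cut at gaps of 500 kb. Counts, medians and exact intervals were computed with pandas 2.3.3 and SciPy 1.17.1, and the matching was tested on simulated regions. Members and lists were chosen with earlier results of these data known. Named were members with 2 or more regions, with an exonic region outside the last exon or with a region over 10 kb, the first, last and widest exonic regions of each cluster of 5 or more, and listed genes; ZNF274, paralog copies, and examples of single groups, runs and start sites were added after their values were seen. Alternatives changed the naming, overlap, width, annotation class, symbol pattern and cluster gap. Planned counts of zinc fingers and KRAB domains, which need protein sequences, were not analysed here.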

Additional observations from a re-analysis of the deposited data

How the results depend on the processing

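The share of ZNF genes with an exonic region, 64.6%, depended on how a region was counted. It was 52.4% when the nearest start site named the gene (10.9% of all protein-coding genes), 37.8% with regions up to 2 kb only (10.4%), 77.6% when any overlap with a gene body counted (30.2%) and 77.2% with at least 50% of the region inside the body (28.5%). The fall with narrow regions follows from the removal of wider ones, since 99 of the 168 exonic regions (58.9%) were up to 2 kb. It stayed within its interval with regions of 1 kb or more (58.5%), promoters and transcript ends included (67.5%), symbols without a trailing letter (63.8%), read-through symbols (63.9%) and without regions over 10 kb (64.2%, a setting added after seeing the data). Under each of these the share in the members was above that of all protein-coding genes. The last-exon share, 97.0%, ranged from 94.6% (regions up to 2 kb) to 97.6% over 5 alternatives. The median width of 1895.5 bp was 1770 bp for exonic regions and 1839 bp without trailing letters. A gap of 1 Mb gave 16 groups and 250 kb gave 26, against 20; the share in groups of 5 or more genes then ran from 51.4 to 80% with the wider gap and from 33.3 to 90.9% with the narrower one. A stricter peak threshold and leaving out a library were not run, since the files hold no score and no value per library. No paired analysis was possible because the deposited set is 1 intersection with no value per library.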
